A study of Mus musculus with 6 samples.

Results

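The transcriptional coactivators YAP and TAZ, the TEAD factors that carry them to DNA and a set of their target genes were followed in mouse embryonic fibroblasts (MEF) that had moved through narrow pores. The 10 genes were taken by name from the count table, in which gene identifiers without their version were matched to GENCODE M21 (GRCm38), and all 10 were found among 55335 genes. They are the coactivator genes Yap1 and Wwtr1 (which encodes TAZ), the factor genes Tead1, Tead2, Tead3 and Tead4, and the target genes Ankrd1, Amotl2, Lats2 and Ajuba. The Confine group was wild-type MEF collected from below a transwell membrane with 3 μm pores 15 h after seeding on its upper side, and the Ctrl group was the wild-type parental MEF, which had not passed a membrane. Strain, embryo age and whether the cultures were separate were not given, so p-values measure the spread between these libraries, which may be technical. Passage through a pore and culture on a membrane cannot be told apart in this design.

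YAP and TAZ have no DNA-binding domain of their own and act through TEAD factors, which bind the sequence GGAATG. The Hippo kinases MST1/2 (Stk4 and Stk3) act through the kinases LATS1/2. LATS1/2 phosphorylate YAP and TAZ, which are then held in the cytoplasm by 14-3-3 proteins or degraded. Stretched, well spread fibroblasts are known to keep YAP and TAZ in the nucleus, so much of their control lies in protein location, which RNA counts do not measure. Amotl2 and Lats2 are at once targets and inhibitors of YAP, and Ajuba encodes a LIM protein that binds LATS kinases.

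The sequences just upstream of the RefSeq start sites are shown for the genes on which the results turn, to set where the TEAD motif lies beside what the transcripts did. Sequences are RefSeq's (GRCm38.p6), each on the strand of its gene from 5′ to 3′, and capitals mark GGAATG or its reverse complement CATTCC. Where GENCODE M21 places an exon of some transcript inside the 250 bases, only the part before that exon or 30 bases around a motif are given.
Wwtr1, chr3:57575911-57576160, minus strand: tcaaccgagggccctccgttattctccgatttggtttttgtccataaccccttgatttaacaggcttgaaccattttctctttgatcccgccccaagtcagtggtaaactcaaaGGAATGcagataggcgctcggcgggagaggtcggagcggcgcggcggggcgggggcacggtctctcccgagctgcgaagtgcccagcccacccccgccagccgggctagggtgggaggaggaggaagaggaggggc
Yap1, chr9:8004597-8004846, minus strand: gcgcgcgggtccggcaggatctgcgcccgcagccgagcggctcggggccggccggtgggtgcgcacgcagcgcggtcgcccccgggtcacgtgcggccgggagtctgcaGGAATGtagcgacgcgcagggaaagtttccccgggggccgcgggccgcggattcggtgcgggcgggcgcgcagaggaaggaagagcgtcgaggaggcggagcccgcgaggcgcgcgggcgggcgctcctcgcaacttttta
Tead2, chr7:45215542-45215752, plus strand: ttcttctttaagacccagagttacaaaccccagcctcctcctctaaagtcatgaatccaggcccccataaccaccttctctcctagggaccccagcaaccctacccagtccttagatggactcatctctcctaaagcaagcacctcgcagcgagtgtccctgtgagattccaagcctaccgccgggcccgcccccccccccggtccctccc
Ajuba, chr14:54577662-54577911, minus strand: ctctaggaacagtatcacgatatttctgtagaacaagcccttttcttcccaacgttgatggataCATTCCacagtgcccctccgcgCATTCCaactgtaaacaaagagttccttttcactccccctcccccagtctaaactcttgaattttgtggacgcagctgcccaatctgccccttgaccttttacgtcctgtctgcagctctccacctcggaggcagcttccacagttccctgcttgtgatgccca
Ankrd1, chr19:36120037-36120066, minus strand: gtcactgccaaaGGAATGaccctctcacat
Ankrd1, chr19:36119950-36119979, minus strand: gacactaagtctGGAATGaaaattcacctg
Amotl2, chr9:102717727-102717756, plus strand: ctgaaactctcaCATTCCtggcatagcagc

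The motif was found within 250 bases before a start site in 6 of the 8 member genes that had a window in the RefSeq table, namely Yap1, Wwtr1, Tead3, Ankrd1, Amotl2 and Ajuba. Over all genes with a window, 14.4% held it. Among the pathway lists described below, it was in 3 of 4 VGLL cofactor genes and in 4 of 12 genes of the target signature. The other lists had it in 0 to 25.0% of their genes with a window. Ankrd1 had copies beginning 210 and 123 bases before the start, and Ajuba had copies 186 and 164 bases before it. The copy in Wwtr1 began 136 bases before the more upstream of its RefSeq starts, and that in Yap1 141 bases before its start. Tead2 and Lats2 had none in their windows, and Tead1 and Tead4 were not in the table. The AP-1 motif TGACTCA, searched likewise on both strands, was in 0 of the 8 genes and in 1395 of all 27025 genes with a window. A match of letters is a description, and nothing was read from it about binding.

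Total counts ran from 22287210 to 27853805 in the 3 Ctrl libraries and were 32537550 and 27290138 in Confine. No gene among the 55335 differed between the columns for Confine replicates 1 and 2. They entered as 1 library (Confine 1/2), which leaves 3 Ctrl and 2 Confine libraries. The fibroblast label was checked against 10 markers: Col1a1, Col1a2, Col3a1, Pdgfra, Pdgfrb, Vim and Fn1 were expressed, while Thy1, Dcn and Lum were at most 0.912 CPM (normalized read counts, scaled by TMM library size) in every library. The epithelial markers summed to at most 0.378 CPM and the endothelial markers to at most 0.718 CPM in any library, and the leukocyte markers Ptprc and Adgre1 were at or near 0. Other markers moved with the groups. All 7 proliferation markers fell in Confine, with their sum going from 1354 to 1539 CPM in Ctrl to 531.0 to 638.0 CPM. Of the 7 tested fibroblast markers, 5 rose. In the test described below, 10.2% of all tested genes were called lower and 12.8% higher in Confine. Cd68 rose and Lyz2 fell among the leukocyte markers, and Des and Tnnt2 rose among the muscle markers, whose sums were at most 24.5 CPM. The other muscle markers, Myod1, Myog, Myh6, Actn2 and Nkx2-5, were at most 0.0851 CPM in every library. The part of the markers that moved in the results on YAP, TAZ and TEAD genes was not tested.

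Of the 10 genes, Wwtr1 rose and Tead2 fell in Confine, and 8 did not pass the test. Calls were made with the quasi-likelihood test of edgeR where the adjusted p (Benjamini-Hochberg, over all 15881 genes tested) was under 0.05. The share called was 2 of 10 among these genes and 23% among all genes tested (12.8% higher and 10.2% lower in Confine), so it was near the background. None of the 10 passed the study's added cutoff of an absolute log2 fold change above 1.5, which 8% of all tested genes did. The median log2 fold change of the 10 was 0.012, beside -0.0021 for all tested genes. The groups did not overlap in 5 of the 10 genes, against 49.5% of all tested genes. In whole cultures, fewer cells of a type and less RNA per cell cannot be told apart.

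Wwtr1, on chromosome 3 from 57455649 to 57575910 (minus strand), encodes TAZ. It had 30.3, 44.7 and 24.1 normalized CPM in Ctrl 1, 2 and 3 and 52.5 and 63.2 in Confine 1/2 and 3. The groups did not overlap, Confine being the higher, and Ctrl 2 came nearest to it. The mean went from 33.1 ± 10.6 CPM (SD, n = 3) to 57.9 ± 7.55 CPM (SD, n = 2), a 1.75-fold rise. The log2 fold change was 0.81 (standard error 0.22, 95% interval 0.33 to 1.28, edgeR adjusted p = 0.0135). Without Confine 3 the adjusted p of edgeR's test was 0.186, and with scaling by library size only it was 0.0611, with log2 fold changes of 0.67 and 0.59.

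Yap1, on chromosome 9 from 7931999 to 8004596 (minus strand), did not pass the test. It had 40.3, 51.7 and 35.0 CPM in Ctrl and 43.9 and 44.4 CPM in Confine, so both Confine libraries lay inside the Ctrl range. The log2 fold change was 0.061 (standard error 0.20), and its 95% interval of -0.35 to 0.47 allows anything from 0.783-fold to 1.39-fold (edgeR adjusted p = 0.864).

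The balance of the pair was read within each library, where it does not depend on the scaling of libraries. Per kilobase of exon, Wwtr1 stood at 1.46, 1.68 and 1.34 times the level of Yap1 in Ctrl 1, 2 and 3 and at 2.32 and 2.76 times in Confine 1/2 and 3. Every library thus held more Wwtr1 than Yap1 by this measure, and the ratios of the groups did not overlap. In CPM, not divided by length, Yap1 was the higher in all 3 Ctrl libraries and Wwtr1 in both Confine libraries. Which gene stands higher thus depends on the exon lengths, 9257 bp for Yap1 and 4779 bp for Wwtr1. The difference in the log2 ratio between the groups does not. The log2 ratio was 0.57 ± 0.17 (SD, n = 3) in Ctrl and 1.34 ± 0.18 (SD, n = 2) in Confine, a difference of 0.77. The two-sided exact permutation test gave p = 0.1, the smallest that 3 libraries against 2 allow. The difference was between 0.65 and 0.89 with each library left out in turn. Yap1 and Wwtr1 together went from 8.82 to 14.9 CPM per kb in Ctrl to 15.7 and 18.0 CPM per kb in Confine.

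**Figure D1:**
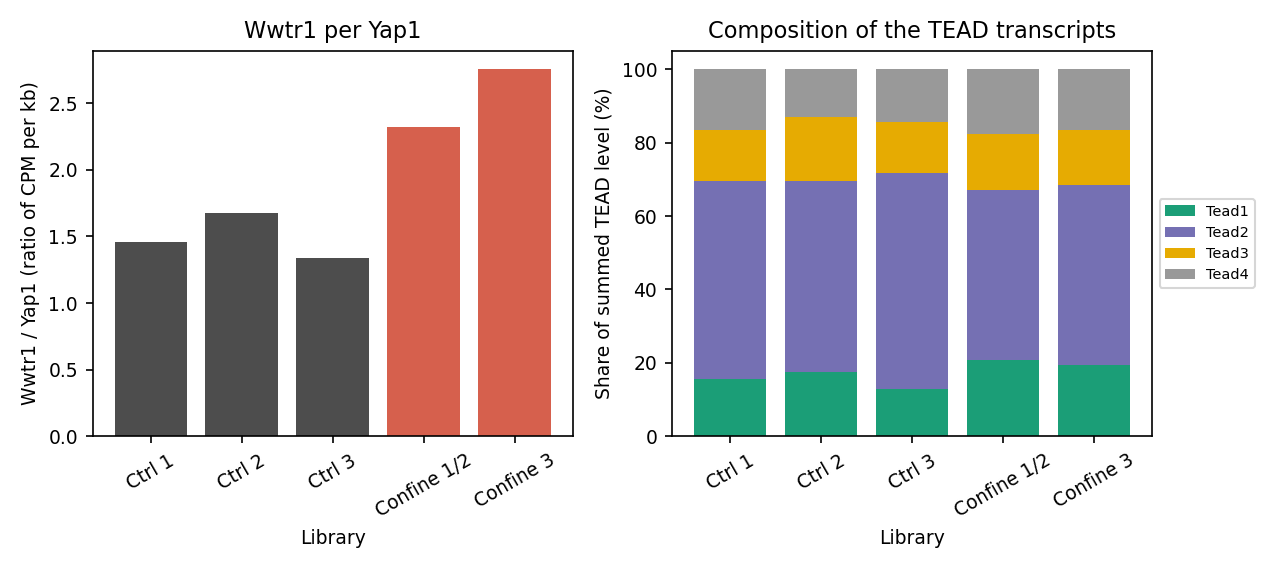
Left, level of Wwtr1 divided by that of Yap1 (each in CPM per kb of exon) in the 3 Ctrl libraries (dark grey) and the 2 Confine libraries (red), where the bars stand at 1.34 to 1.68 in Ctrl and 2.32 to 2.76 in Confine. Right, share of each TEAD gene in the summed TEAD level (%, from CPM per kb of exon) in the same libraries, with Tead2 the largest part in all 5.

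Tead2 was the only 1 of the 4 TEAD genes that passed the test, which 23% of all tested genes did. All 4 had negative log2 fold changes. TEAD2, on chromosome 7 from 45215753 to 45233644 (plus strand), is known as a TEAD of embryonic tissue. It had 50.3, 56.5 and 58.2 CPM in Ctrl and 32.1 and 40.3 CPM in Confine, with all Confine values below all Ctrl values. The mean went from 55.0 ± 4.17 CPM (SD, n = 3) to 36.2 ± 5.80 CPM (SD, n = 2), which is 0.657 of the Ctrl level. The log2 fold change was -0.61 (standard error 0.19, 95% interval of the fold 0.499 to 0.866, edgeR adjusted p = 0.0264). The call rests on all of the libraries but Ctrl 1 and 2: the edgeR adjusted p was 0.0502 without Ctrl 3, 0.294 without Confine 1/2 and 0.0684 without Confine 3, with log2 fold changes of -0.58, -0.45 and -0.78.

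The other TEAD genes did not pass the test. Tead1, on chromosome 7 from 112679318 to 112906807, had 41.3, 54.2 and 36.7 CPM in Ctrl and 41.0 and 44.9 CPM in Confine, and the groups overlapped. Its log2 fold change was -0.037 (95% interval -0.45 to 0.38, edgeR adjusted p = 0.921). Tead3, on chromosome 17 from 28331671 to 28350817, had 18.1, 26.7 and 19.3 CPM in Ctrl and 14.7 and 17.2 CPM in Confine. Both Confine values were below all Ctrl values, and the interval of the log2 fold change, -0.87 to 0.030 around -0.42, just held 0 (edgeR adjusted p = 0.176). With library size alone its log2 fold change was -0.63 and its edgeR adjusted p 0.0415. Tead4, on chromosome 6 from 128224288 to 128300823, had 11.7, 10.5 and 10.8 CPM in Ctrl and 9.22 and 10.2 CPM in Confine, a narrow gap in which the groups did not overlap. Its log2 fold change was -0.18 (95% interval -0.63 to 0.26, edgeR adjusted p = 0.593).

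By level per kilobase of exon, Tead2 led the family in both groups. In CPM, not divided by length, Tead2 was above Tead1 in all 3 Ctrl libraries and below it in both Confine libraries. The shares thus depend on the exon lengths, such as 13570 bp for Tead1 and 4788 bp for Tead2. Per kilobase of exon, Tead2 made up 53.9%, 52.0% and 58.6% of the summed TEAD level in Ctrl 1, 2 and 3 and 46.3% and 49.1% in Confine 1/2 and 3. The mean share went from 54.8% ± 3.43 (SD, n = 3) to 47.7% ± 1.99 (SD, n = 2), and the groups did not overlap. The two-sided exact permutation test gave p = 0.1, the smallest the design allows, and an adjusted p of 0.4 over the 4 shares. Tead1 had a mean share of 15.4% ± 2.28 (SD, n = 3) in Ctrl and 20.1% ± 1.10 (SD, n = 2) in Confine, a difference of 4.70 percentage points (exact permutation p = 0.2). Tead3 stayed at means of 15.1% and 15.0%, and Tead4 had means of 14.7% and 17.1% (exact permutation p = 1 and p = 0.3). The summed TEAD level was 19.5, 22.7 and 20.7 CPM per kb in Ctrl and 14.5 and 17.1 CPM per kb in Confine.

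None of the 4 target genes passed the test, which 23% of all tested genes did. Ankrd1, a nuclear ankyrin-repeat protein gene that is among the most used readouts of YAP activity, lies on chromosome 19 from 36111961 to 36120099 (minus strand). It had 90, 57 and 37 counts in Ctrl and 103 and 39 in Confine, which are 3.11, 2.15 and 1.57 CPM and 3.48 and 1.55 CPM. The Confine libraries held both the highest and the lowest value of the 5. They differed from each other by more than counting error. The exact Poisson 95% intervals were 2.84 to 4.22 CPM in Confine 1/2 and 1.10 to 2.12 CPM in Confine 3. Ctrl 1 and Ctrl 3 also differed by more than that, with intervals of 2.50 to 3.82 CPM and 1.11 to 2.17 CPM. The log2 fold change was 0.14 with a 95% interval of -0.68 to 0.96 (edgeR adjusted p = 0.837), so anything from 0.626-fold to 1.95-fold is compatible with these libraries. Without Confine 1/2 it was -0.56 and without Confine 3 it was 0.60. The Poisson intervals cover counting error only.

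Amotl2, which encodes an angiomotin that binds YAP, lies on chromosome 9 from 102716672 to 102733418 (plus strand). It had 56.1, 44.8 and 44.6 CPM in Ctrl and 60.8 and 59.2 CPM in Confine, and both Confine values were above all Ctrl values. Its log2 fold change of 0.31 (95% interval -0.078 to 0.69) did not pass the test (edgeR adjusted p = 0.255). Lats2, the Hippo kinase gene on chromosome 14 from 57689662 to 57758388 (minus strand), had 39.6, 39.9 and 27.5 CPM in Ctrl and 44.4 and 39.0 CPM in Confine. The low value of Ctrl 3 set it apart from the other libraries, and the log2 fold change was 0.22 (95% interval -0.20 to 0.64, edgeR adjusted p = 0.468). Lats2 shares 2955 bp of exon with Gm49361 on the same strand, which was at 0 counts in every library, so reads in that stretch may have been given to neither gene and the level of Lats2 may be too low. Ajuba, on chromosome 14 from 54567472 to 54577558 (minus strand), had 39.1, 50.5 and 37.3 CPM in Ctrl and 39.3 and 33.4 CPM in Confine, and the groups overlapped. Its log2 fold change was -0.22 (95% interval -0.63 to 0.19, edgeR adjusted p = 0.473). The TEAD motif lay within 250 bases before a RefSeq start in 3 targets, Ankrd1, Amotl2 and Ajuba. In Ankrd1 and Amotl2 it fell inside an exon annotated by GENCODE M21. The 3 had log2 fold changes of 0.14, 0.31 and -0.22, and Lats2, without the motif, had 0.22.

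**Figure D2:**
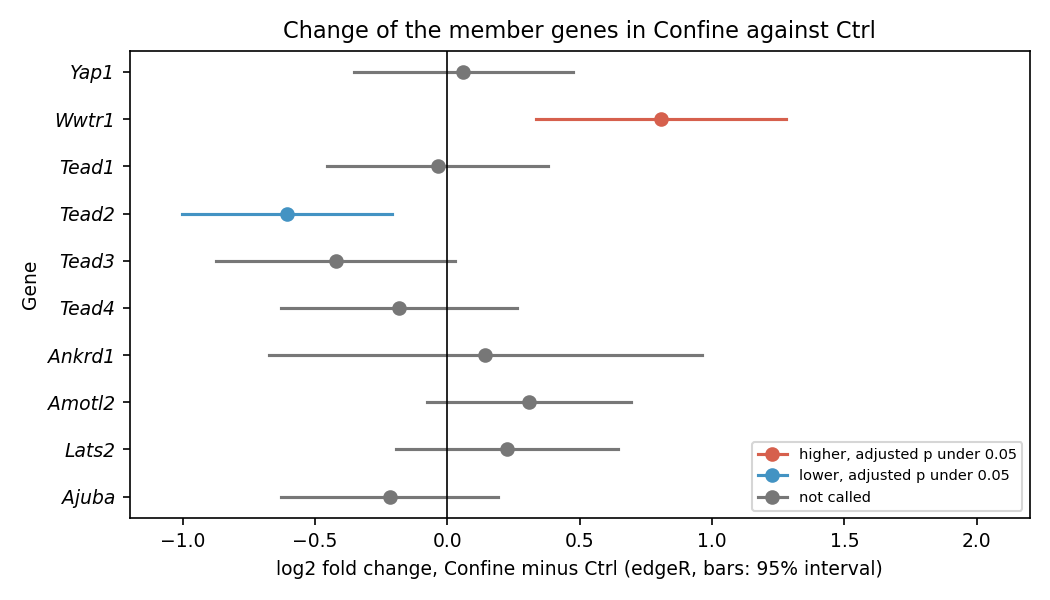
log2 fold change of each of the 10 genes in Confine minus Ctrl (points) with its 95% interval (bars) from edgeR, red for higher and blue for lower at an adjusted p under 0.05 and grey otherwise. The interval of Wwtr1 lies above 0 (0.33 to 1.28), that of Tead2 below it (estimate -0.61), and the other 8 include 0.

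Compared per kilobase of exon, the order of the levels differed between the groups at its top. In Ctrl, Ajuba (11.6 ± 1.96 CPM per kb, SD, n = 3) and Tead2 (11.5 ± 0.872) stood highest and did not differ beyond their spread, followed by Amotl2 (7.71 ± 1.04) and Wwtr1 (6.92 ± 2.21), whose ranges also overlapped. In Confine, Wwtr1 (12.1 ± 1.58 CPM per kb, SD, n = 2) stood highest, followed by Ajuba (9.98 ± 1.14), Amotl2 (9.55 ± 0.181) and Tead2 (7.55 ± 1.21). The values of Ajuba and Amotl2 overlapped there. Lats2 had means of 5.12 and 5.98 CPM per kb and Yap1 4.57 and 4.77 in Ctrl and Confine, near the middle of the 10 in both. Tead1, Tead3 and Tead4 lay between 2.38 and 3.25 in their group means and overlapped one another in Ctrl. Ankrd1 was lowest, with means of 0.790 in Ctrl and 0.871 in Confine, at the 25.6th percentile of the levels of all genes tested, while Ajuba was at the 75.8th.

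**Figure D3:**
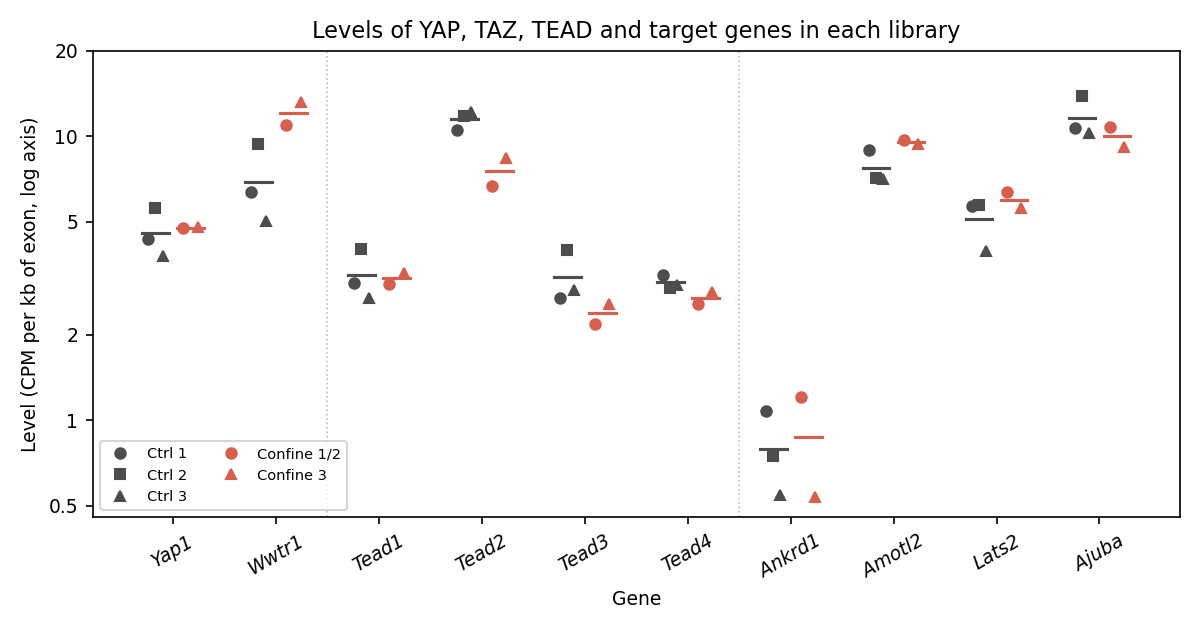
Level of each gene in CPM per kb of exon (log axis) in the 3 Ctrl libraries (dark grey) and the 2 Confine libraries (red), with symbols for libraries and bars for group means. Wwtr1 moved from a mean of 6.92 to 12.1 and Tead2 from 11.5 to 7.55, while both Confine values of Yap1 lay inside the Ctrl range.

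The rest of the pathway was described with 78 further genes in 6 lists, of which 73 were tested and 21 were called, 13 higher and 8 lower in Confine (28.8% of those tested, against 23% of all genes). Most of the movement was in the upstream scaffolds and in the target signature. The lists were chosen with earlier results of these data known, so the shares called in them are a description. Hippo kinases and their adaptors had 16 tested members. Mink1, a kinase of the MAP4K group, was the only one called (6.25%, against 23% of all genes). It went from 7.84 ± 0.639 CPM (SD, n = 3) to 15.4 ± 0.0558 CPM (SD, n = 2), with a log2 fold change of 0.98 (edgeR adjusted p = 0.00183). The core kinases Stk3, Stk4 and Lats1 had log2 fold changes of 0.043, 0.029 and 0.077. Of the 11 genes for 14-3-3 proteins and for the ligase and kinases that mark YAP and TAZ for degradation, 0 were called, and the nearest to a call was Csnk1e (log2 fold change 0.42, edgeR adjusted p = 0.101, unadjusted p = 0.0298).

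Of the 14 tested upstream scaffolds and junction proteins, 5 rose and 3 fell (57.1%, against 23% called among all tested genes). Frmd6, a FERM-domain gene upstream of the Hippo kinases, rose from 30.3 ± 6.71 CPM (SD, n = 3) to 89.5 ± 11.6 CPM (SD, n = 2), with a log2 fold change of 1.56 (edgeR adjusted p = 1.4e-05). Rassf1, which encodes a scaffold of the MST kinases, rose from 38.7 ± 10.7 to 94.8 ± 6.39 CPM, and Wwc1, which encodes the LATS-binding scaffold KIBRA, from 9.24 ± 1.92 to 22.2 ± 3.53 CPM, with log2 fold changes of 1.29 and 1.26. The tight junction gene Tjp1 also rose, with a log2 fold change of 0.66. The 3 genes that fell were Rassf6, another MST-binding scaffold gene (log2 fold change -1.81, at most 5.77 CPM in any library), Amot, which encodes the angiomotin that binds YAP (11.7 to 16.7 CPM in Ctrl against 5.47 and 4.13 CPM in Confine, log2 fold change -1.63), and the atypical cadherin gene Fat4 (from 19.7 ± 2.71 to 8.84 ± 1.11 CPM, log2 fold change -1.15). Within the angiomotin family, Amot thus fell while Amotl1 and Amotl2 had log2 fold changes of 0.29 and 0.31 that did not pass the test. Tjp1 lost its call without Ctrl 1, Ctrl 3 or Confine 1/2 (edgeR adjusted p = 0.0573, 0.0572 and 0.324), and Rassf6 lost it without Confine 1/2 (edgeR adjusted p = 0.0644).

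In the STRIPAK phosphatase complex, which removes phosphate from MST kinases, 2 of 11 tested genes rose and 0 fell (18.2%, below the 23% called among all tested genes). Sike1 rose with a log2 fold change of 0.65, and leaving out any library but Ctrl 2 ended its call (edgeR adjusted p from 0.0868 to 0.184). The TEAD cofactor gene Vgll3 fell from 50.4 ± 14.7 CPM (SD, n = 3) to 26.0 ± 0.417 CPM (SD, n = 2), with a log2 fold change of -0.95 (edgeR adjusted p = 0.00442, and 0.0623 without Confine 1/2 and 0.0732 without Confine 3). Vgll4, a cofactor that competes with YAP for TEAD, had -0.34 (edgeR adjusted p = 0.186), and Vgll1 and Vgll2 were at or near 0 counts.

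A signature of 19 YAP/TAZ targets outside the 10 genes did not move one way. All 19 were tested, 5 rose and 4 fell (47.4%, against 23% called among all tested genes). The median log2 fold change was 0.031. Ccn2, the connective tissue growth factor gene that is a standard YAP/TAZ readout, had 9.74, 5.06 and 5.27 CPM in Ctrl and 32.4 and 31.2 CPM in Confine, with a log2 fold change of 2.24 (standard error 0.25, edgeR adjusted p = 2.64e-06). Ccn1, its relative and an equally common readout, had 459.5, 213.6 and 413.1 CPM in Ctrl and 305.1 and 301.6 CPM in Confine, so that both Confine libraries lay inside the Ctrl range (log2 fold change -0.26, edgeR adjusted p = 0.510). Nt5e, which encodes the ecto-nucleotidase CD73, rose from 0.881 ± 0.460 to 6.16 ± 0.408 CPM (log2 fold change 2.81), and Dock5, which encodes an activator of Rac, from 44.0 ± 4.77 to 89.6 ± 6.49 CPM (log2 fold change 1.03). F3 (tissue factor) and Asap1 also rose, with log2 fold changes of 0.95 and 0.55. Fjx1, Ccdc80 and Crim1 fell, with log2 fold changes of -1.25, -0.85 and -0.64, and so did Tgfb2 with -0.58. The groups overlapped in Ccdc80, with 3397, 1263 and 2826 CPM in Ctrl and 1567 and 1194 CPM in Confine. Its call was lost with DESeq2 (adjusted p = 0.222), limma-voom (adjusted p = 0.0776) and the identical columns as 2 samples (edgeR adjusted p = 0.0678), and that of Fjx1 with limma-voom (adjusted p = 0.0558). The standard readouts therefore differed among themselves: Ccn2 rose, and Ankrd1 and Ccn1 did not pass the test.

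Without Confine 3, F3 lost its call (edgeR adjusted p = 0.0842), and Fjx1, Crim1, Ccdc80, Tgfb2 and Asap1 each lost theirs without either Confine library and without at least 1 Ctrl library, with edgeR adjusted p-values of up to 0.179, 0.213, 0.295, 0.454 and 0.325. Of the 21 called pathway genes, 10 kept an adjusted p under 0.05 in all 13 refits (other tools, scaling, filters, the block and left-out libraries), among them Mink1, Wwc1, Frmd6, Fat4, Amot, Rassf1, Ccn2, Nt5e and Dock5. The study's cutoff of 1.5 on the absolute log2 fold change was passed by 5 of the 21, namely Frmd6, Rassf6, Amot, Ccn2 and Nt5e. That is 5 of the 73 tested pathway genes, beside 8% of all tested genes.

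**Figure D4:**
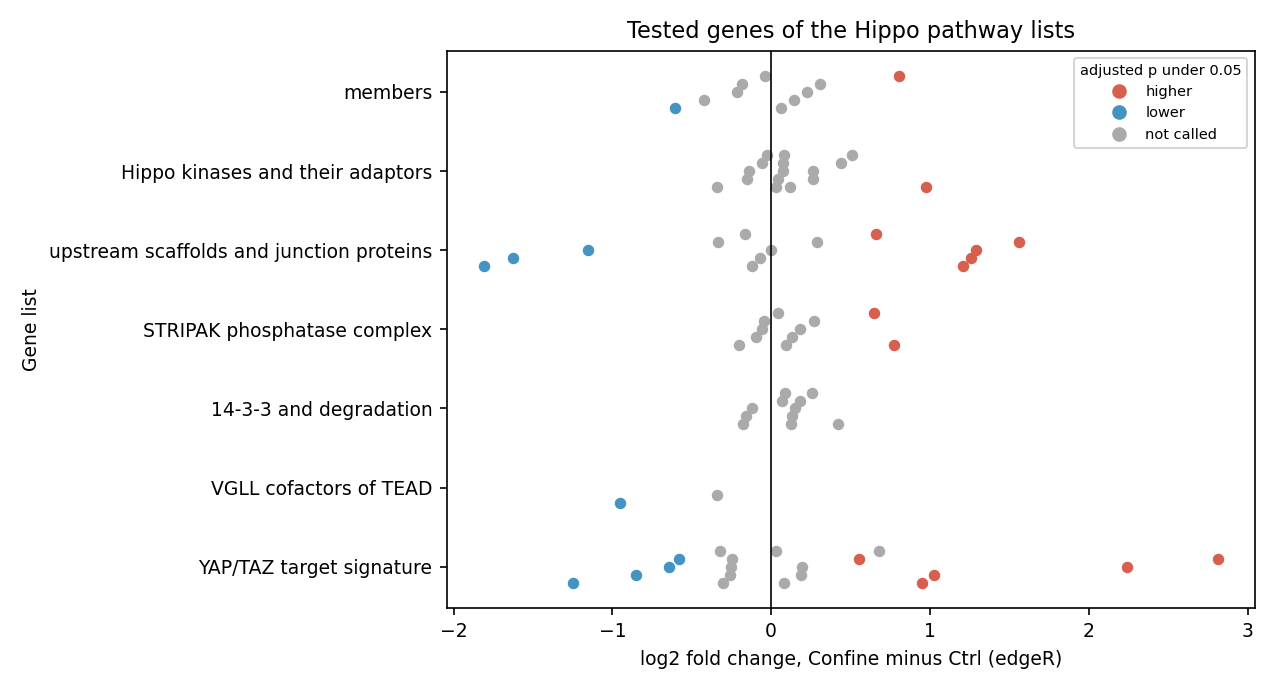
log2 fold change in Confine minus Ctrl (edgeR) of each tested gene in the 10 member genes and the 6 pathway lists, one point a gene, red for higher and blue for lower at an adjusted p under 0.05 and grey otherwise. The upstream scaffolds spread from -1.81 (Rassf6) to 1.56 (Frmd6) and the target signature from -1.25 (Fjx1) to 2.81 (Nt5e), while the 11 genes of 14-3-3 proteins and degradation lie near 0.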

How the data were processed

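Poly(A) RNA of MEF was sequenced in 3 Ctrl and 3 Confine samples by a library preparation that marks the second strand with dUTP. The authors deposited raw counts of reads per gene, and the submitters' processing notes name Trim Galore 0.6.10, HISAT2 2.1.0, SAMtools 1.5, featureCounts and build mm10. The annotation and the strand setting of the counting are not given in the sources used here. Of the 55335 identifiers, 55154 matched GENCODE M21 without version, which gave names, positions and exon lengths. Levels in CPM per kb divide normalized CPM by the union of exons.

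filterByExpr left 15881 genes. TMM factors and a quasi-likelihood fit came from edgeR 4.0.16 (R 4.3.3). The model held the group only, with no block, which leaves 3 residual degrees of freedom. Standard errors were derived from the test's F value, and 95% intervals from its degrees of freedom. A design of 3 against 3 libraries became 3 against 2, since identical columns enter once. A floor of 3 counts is 0.101 to 0.128 CPM. Ratios and shares were tested by exact permutation over libraries. Named were the 10 members and the called genes of the lists, with values for up to 3 per direction. Some genes counted in the lists are not reported here by name. Members and lists were chosen with earlier results of these data known. Alternatives were DESeq2 1.42.0, limma-voom (limma 3.58.1), other scaling and filters, the block, the identical columns as 2 samples and leaving out each library. Near-identical transcripts were searched with blastn 2.17.0. The fit was checked on simulated counts. Columns not used numbered 0.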

Additional observations from a re-analysis of the deposited data

How the results depend on the processing

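Of 130 log2 fold changes of the 10 genes under 13 alternatives, 122 kept their direction. The other 8 turned, and none of them was called: with library size alone, which moved the median of all tested genes by -0.21, Yap1 had -0.15 and Ankrd1 -0.066, and with the replicate block and Confine 1/2 as number 1, Tead1 had 0.14. With each library left out in turn, Yap1 ranged from -0.077 to 0.23, Tead1 from -0.17 to 0.13 and Ankrd1 from -0.56 to 0.60. The difference in the share of Tead3, -0.011 percentage points, was 0.0074 with the identical columns counted as 2 samples, 0.12 with the longest transcript as length, and from -0.64 to 1.22 with each library left out. The cause of these changes was not tested.

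Of the 10 genes, 1 was higher and 1 lower. With library size alone 0 were higher and 2 lower (Tead2 and Tead3), with the block and Confine 1/2 as number 2 0 were lower, with an absolute log2 fold change above 1.5 required 0 and 0, and with each library left out from 0 to 1 in each direction. Of the pathway genes, 13 were higher and 8 lower. With the fold cutoff 3 and 2 were called, with the block and Confine 1/2 as number 2, 4 were lower, and with each library left out from 10 to 15 were higher and from 2 to 8 lower. Over all tested genes 2035 were higher and 1619 lower. With the fold cutoff 777 and 494 were, with library size alone 1444 and 2805 (34% of calls higher, against 55.7%), with the identical columns as 2 samples 2456 were lower, and with each library left out from 1196 to 2411 were higher and from 850 to 2015 lower. Fits without a Confine library assume that the lone sample varies like the Ctrl libraries.

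Replicate numbers were not taken to pair the samples: differences between numbers 2 and 3 in Ctrl and Confine had a correlation across genes of -0.091, and of 0.077 with Confine 1/2 as number 1. With the replicate block as number 2, Wwtr1 kept an edgeR adjusted p of 0.0239 and Tead2 had 0.0680. The Wwtr1 to Yap1 difference was 0.76 and that in the share of Tead1 4.80 percentage points when read within numbers, and each kept its direction in every alternative (0.65 to 0.89, and 3.51 to 5.78).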
